A study of Mus musculus with 16 samples.

Results

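The TRPC genes analysed here, Trpc1, Trpc4, Trpc5, Trpc6 and Trpc7, encode pore-forming subunits of transient receptor potential canonical cation channels. They were chosen by name as a gene family, and 5 of the 55385 genes in each deposited table belong to the set. All 5 passed the filter on low counts that left 17222 genes for testing. RNA came from primary hippocampal cultures of newborn C57Bl/6N mice, in 16 libraries. One group of 4 carried Control-shRNA and was kept at baseline, and a further 4 carried Control-shRNA and received bicuculline for 4 h. The other libraries carried Dnmt3a1-shRNA2, 4 at baseline and 4 with bicuculline for 4 h. Bicuculline blocks GABA-A receptors, which frees the cultures from inhibition and drives action potential bursts. Every culture, controls included, was infected with a recombinant adeno-associated virus in which the U6 promoter drives the shRNA and a chicken beta-actin promoter drives GFP. The knockdown rests on a single shRNA against Dnmt3a1, the long isoform of the DNA methyltransferase Dnmt3a, and the libraries of a group are independent neuronal preparations.

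TRPC subunits assemble as tetramers into cation channels of the plasma membrane that pass sodium and calcium. The channels open downstream of receptors that couple through Gq proteins to phospholipase C, and they lengthen depolarisations and raise calcium after such receptors fire. TRPC6 and TRPC7 belong to a subgroup that diacylglycerol opens directly, whereas TRPC4 and TRPC5 form another, and TRPC1 mostly joins other subunits rather than acting alone. In hippocampal neurons the family is known for slow depolarising currents, for growth cone motility and for the shape of dendrites and excitatory synapses.

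The coding sequences followed these subgroups. In GENCODE M21 the longest coding sequences of Trpc4 and Trpc5 were identical at 71.3% of aligned bases, and those of Trpc6 and Trpc7 at 71.7%. All other pairs of the 5 genes lay between 59.1% and 65.3%. The coding lengths ran from 2427 bases in Trpc1 to 2925 bases in Trpc5. On GRCm38.p6, the build of the files, Trpc1 lies on chr9:95705082-95750375, Trpc4 on chr3:54156035-54318471, Trpc5 on chrX:144381671-144688180, Trpc6 on chr9:8544142-8680741 and Trpc7 on chr13:56773113-56895993. Trpc4 and Trpc6 are on the plus strand and the other 3 genes on the minus strand, and no exon of another annotated gene overlapped an exon of any of them.

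How far reads could be confused with other genes was checked from the transcripts, because the authors' quantification divides ambiguous reads. Of the 31-base words in the transcripts of Trpc1, Trpc4, Trpc5 and Trpc7, between 0.0248% and 0.553% also occurred in transcripts of other genes. In Trpc6 the share was 5.29%, or 268 of 5065 words, and 223 of these were shared with Patj. Trpc5 and Trpc7 shared 2 such words with another of the 5 genes and the remaining members shared none, so reads of 1 channel gene were hardly open to assignment to another. Patj itself was called in none of the 4 comparisons (log2 fold changes from -0.32 to 0.22), and the part of the shared stretch in the Trpc6 values was not tested.

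The stretches upstream of the start sites are shown for Trpc4 and Trpc6, the 2 members that lay lower in the Dnmt3a1-shRNA2 libraries, and for Trpc5, which did not, because Dnmt3a1 methylates cytosines before guanines. They are RefSeq sequence on GRCm38.p6, 5′ to 3′ on the strand of the gene and end before the first annotated base, and capitals mark CpG.
Trpc4, chr3:54155807-54156034, plus strand: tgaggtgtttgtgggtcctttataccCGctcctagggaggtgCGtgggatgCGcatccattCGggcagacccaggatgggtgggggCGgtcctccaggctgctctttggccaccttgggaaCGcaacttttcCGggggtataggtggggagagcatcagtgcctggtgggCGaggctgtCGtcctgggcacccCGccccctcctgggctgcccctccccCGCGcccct
Trpc6, chr9:8543892-8544141, plus strand: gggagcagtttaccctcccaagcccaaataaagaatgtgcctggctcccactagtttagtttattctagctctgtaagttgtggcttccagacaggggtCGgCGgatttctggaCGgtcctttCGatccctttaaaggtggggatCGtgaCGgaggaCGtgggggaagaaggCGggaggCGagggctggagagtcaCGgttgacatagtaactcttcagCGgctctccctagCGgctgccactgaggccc
Trpc5, chrX:144688181-144688430, minus strand: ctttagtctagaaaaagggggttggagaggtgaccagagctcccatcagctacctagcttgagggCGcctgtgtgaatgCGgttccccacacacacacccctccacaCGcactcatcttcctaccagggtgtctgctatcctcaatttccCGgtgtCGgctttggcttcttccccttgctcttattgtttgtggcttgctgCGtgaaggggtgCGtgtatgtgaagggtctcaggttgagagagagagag
The stretches printed hold 12 CpG for Trpc4, 12 for Trpc6 and 7 for Trpc5. Over the full promoter window of 300 bases, 250 before and 50 after the RefSeq start, Trpc1 held 22 CpG, Trpc6 17, Trpc4 16, Trpc5 9 and Trpc7 3. The median over 32851 mouse promoters was 7, so that Trpc7 alone lay below it and Trpc1 held more than 76.9% of promoters did. Trpc6 and Trpc4, the members that lay lower in the knockdown, thus stood between Trpc1 and Trpc5 in CpG number. The part of CpG number in their levels was not tested. DNA methylation was not measured in these libraries.

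Motifs of activity-dependent factors were searched on both strands of the same windows. The full cAMP response element TGACGTCA occurred in none of the 5 promoters and in 1.79% of all promoters. The AP-1 letters TGANTCA, found in 7.81% of all promoters, and the EGR letters GCGNGGGCG, found in 5.55%, were likewise not in any of the 5 windows. The shorter core TGACG, which is contained in the full element, was found 1 time in the Trpc6 window, 103 bases upstream of the start, and 2 times in that of Trpc1. It occurred in 20.8% of all promoters. A match is only a run of letters in this window, and binding was not measured.

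Depth hardly differed between libraries, with 28912697 to 29586355 estimated counts each, and all 24 pairs of libraries from the same group differed by more than counting error, with 7.57 to 42.1 as the ratio of chi-square to its degrees of freedom. Dnmt3a, the targeted gene, lay at 293 to 338 CPM (counts scaled to a common library total, here with the TMM factors of edgeR) in the 8 Control-shRNA libraries and at 39.4 to 48.0 in the 8 Dnmt3a1-shRNA2 libraries. The immediate early genes Arc, Fos and Npas4 lay between 6.12 and 20 CPM in every baseline library and between 554 and 2000 CPM in every library with bicuculline. The neuronal markers summed to between 4520 and 5350 TPM (transcript abundance scaled for length and library total) in every library, and all 8 passed the filter. Markers of astrocytes (192 to 449 TPM in sum), of the oligodendrocyte lineage (80.1 to 186) and of fibroblasts and vessels (33.4 to 82.0) were present in every library, with ranges that overlapped between all groups, though single markers were called higher in the knockdown, the astrocyte gene S100b in both conditions, the pericyte gene Pdgfrb at baseline and the fibroblast gene Lum with bicuculline. The 7 astrocyte markers had median log2 fold changes of 0.41 and 0.43 in the knockdown at baseline and with bicuculline. In RNA from whole cultures, fewer cells of a type and less RNA per cell cannot be told apart.

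Levels were compared between the 5 genes in TPM, the deposited unit that is scaled for transcript length. Trpc4, which forms channels opened through Gq- and Gi-coupled receptors, stood highest, with a median of 34.8 TPM over the 16 libraries and a range from 24.8 to 52.3. Trpc1, the partner subunit, followed with a median of 25.1 and a range from 19.7 to 29. Trpc5, known as a brake on growth cone extension, had a median of 9.16 and a range from 7.83 to 13.5. Trpc6 and Trpc7, from the diacylglycerol subgroup, were far lower, with medians of 2.31 (0.939 to 3.79) and 1.34 (1.10 to 1.69).

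Trpc4 exceeded Trpc1 in 16 of 16 libraries, but by ratios from 1.03 to 1.98, and the ranges of both genes over all libraries overlapped. Trpc1 exceeded Trpc5 by 1.90 to 3.29 times within libraries and Trpc5 exceeded Trpc6 by 2.34 to 12.1 times, with no overlap of their ranges. Trpc6 exceeded Trpc7 in 14 of 16 libraries, and the exceptions were Dnmt3a1-shRNA2 baseline libraries 1 and 4, where Trpc6 was at 0.944 and 0.939 TPM against 1.34 and 1.49 for Trpc7. By mean level, 73.6% of tested genes lay below Trpc4, 65.6% below Trpc1, 47.5% below Trpc5, 27.4% below Trpc6 and 20.5% below Trpc7. The estimated counts behind these levels were 1272 to 2455 for Trpc4 and 1221 to 1651 for Trpc1, 484 to 793 for Trpc5, 44.1 to 179 for Trpc6 and 54.0 to 81.9 for Trpc7, so the last 2 genes were measured with the least precision.

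Added together, the 5 genes reached 84.5 ± 10.4 TPM (SD, n = 4) in Control-shRNA at baseline, 78.1 ± 6.36 with bicuculline, 69.0 ± 12.4 in Dnmt3a1-shRNA2 at baseline and 65.2 ± 6.85 with bicuculline. TPM carries a shift between groups that TMM scaling removes. On log2(TPM + 1) the median tested gene stood 0.14 lower with bicuculline in Control-shRNA and 0.13 lower in Dnmt3a1-shRNA2, against 0.0057 and -0.0080 after TMM scaling. In the knockdown the median was -0.0799 at baseline and -0.0745 with bicuculline, against 0.0070 and -0.0057 after TMM scaling. The share of each gene in the sum does not depend on that shift. Trpc4 made up 53.5% ± 2.82 of the sum in Control-shRNA baseline libraries, 50.8% ± 3.30 in Control-shRNA with bicuculline, 47.4% ± 2.39 in Dnmt3a1-shRNA2 at baseline and 41.1% ± 1.34 in Dnmt3a1-shRNA2 with bicuculline. All 8 knockdown libraries (40.2% to 49.7%) had a lower Trpc4 share than the 4 Control-shRNA baseline libraries (49.9% to 56.5%). With bicuculline the Control-shRNA libraries (47.3% to 55.1%) lay above the knockdown libraries of the same condition (40.2% to 43.0%) and overlapped those at baseline (44.5% to 49.7%). The Trpc1 share was 30.8% ± 2.86 in Control-shRNA baseline libraries and 38.2% ± 0.835 in Dnmt3a1-shRNA2 with bicuculline. Mean TPM of Trpc1 in these groups was 25.9 and 24.9, whereas its mean TMM-scaled CPM was 46.0 and 56.2. The Trpc5 share was 10.3% to 12.4% in every Control-shRNA library and 13.3% to 16.3% in every Dnmt3a1-shRNA2 library. Shares of a sum are tied, so a lower Trpc4 share by itself raises those of the other genes. Trpc6 never passed 4.62% of the sum.

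**Figure D1:**
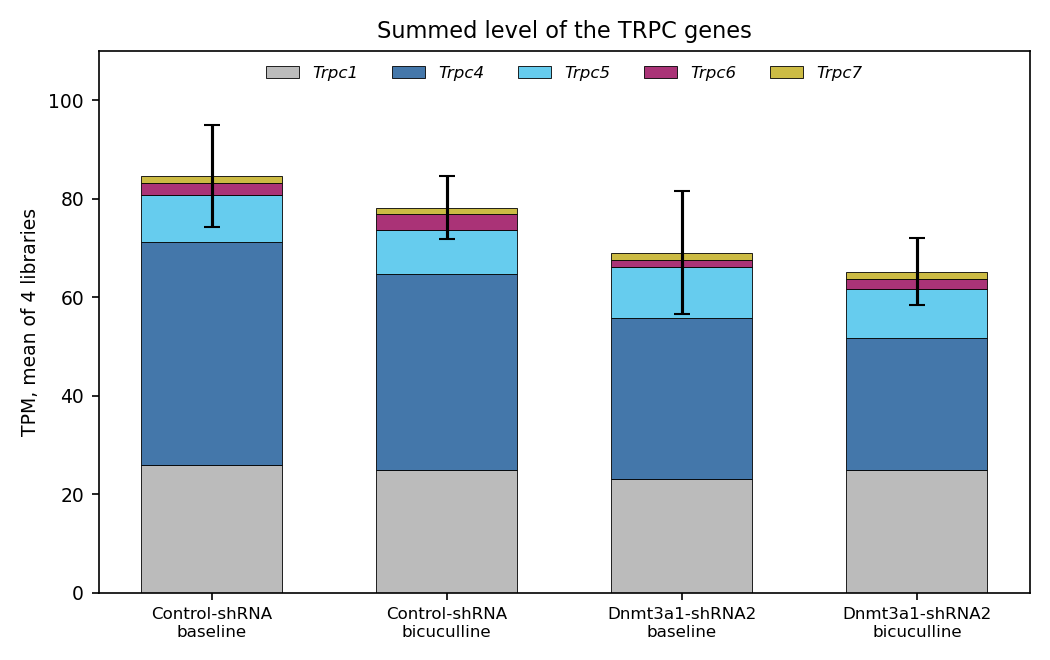
Mean TPM of the 5 TRPC genes, stacked for each of the 4 groups (n = 4 libraries each), with the SD of the summed TPM as error bars. Trpc4 and Trpc1 make up most of each bar, and the Trpc4 portion falls from 45.3 TPM in Control-shRNA at baseline to 26.8 TPM in Dnmt3a1-shRNA2 with bicuculline. In TMM-scaled CPM, not drawn here, the Trpc4 means of these groups are 69.0 and 49.8.

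The first question was how the family responds to synaptic activity in control cultures. Upon bicuculline treatment Trpc6, a channel subunit opened by diacylglycerol and known to promote dendrite growth and excitatory synapse formation, rose to 154% of its baseline level, and none of the other 4 genes were called. Calls required an absolute log2 fold change over 0.5 together with an adjusted p below 0.05 in the quasi-likelihood test of edgeR (Benjamini-Hochberg, all tested genes). So 1 of 5 members was called, beside 21.9% of all 17222 tested genes, which is close to the background.

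In Control-shRNA baseline libraries 1 to 4, Trpc6 was at 3.56, 2.59, 4.72 and 3.50 CPM. With bicuculline the same numbers gave 5.03, 6.36, 6.11 and 4.60 CPM. The groups overlapped, because baseline library 3 lay above bicuculline library 4, but the bicuculline library was the higher in 4 of 4 pairs of equal number, by 1.30 to 2.45 times. The 4 baseline libraries averaged 3.59 ± 0.870 CPM (SD) and the 4 bicuculline libraries 5.52 ± 0.846, which in the fit was a log2 fold change of 0.62 (SE 0.23, 95% CI 0.13 to 1.11) with an adjusted p of 0.0392 in edgeR. The call was lost when any 1 of 6 libraries was left out, with adjusted p of 0.0751, 0.124 and 0.078 without Control-shRNA baseline libraries 1, 2 and 4, of 0.0997 and 0.0921 without Control-shRNA bicuculline libraries 2 and 3 and of 0.0511 without Dnmt3a1-shRNA2 bicuculline library 2. It was also lost without TMM scaling (0.46, adjusted p 0.151), where the median gene stood 0.15 lower with bicuculline, and in limma on log2(TPM + 1) (0.32, adjusted p 0.197). Of the 11 alternatives that left out no single library, 8 called Trpc6. Among these were voom with limma (0.64, adjusted p 0.0203) and DESeq2 (0.63, adjusted p 0.0283). The replicate block, equal numbers being paired in this comparison, gave 0.63 (SE 0.159, edgeR adjusted p 0.00305).

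The Trpc6 level moved alongside the summed TPM of the markers of GABAergic neurons. These 7 markers were all above the filter and none was at 0. They summed to 2300 to 2690 TPM in Control-shRNA at baseline and 2800 to 3920 with bicuculline, and to 1530 to 2120 in Dnmt3a1-shRNA2 at baseline and 2400 to 3060 with bicuculline. The gene Sst weighed most in this sum, with group means from 1010 to 2070 TPM. With bicuculline 4 of the 7 were called higher in each shRNA, beside 21.9% and 25.8% of all tested genes called in either direction, and 2 were called lower in the knockdown at baseline, beside 5.83%. Between the shRNAs with bicuculline 0 of the 7 were called, beside 5.89%, with a median log2 fold change of -0.14. Vip alone of the 7 did not lie lower in the knockdown (0.05 at baseline and 0.09 with bicuculline). Their part in the Trpc6 result was not tested.

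Trpc4 was the least changed member in the same comparison. It was at 60.3, 69.5, 74.7 and 71.6 CPM in the Control-shRNA baseline libraries and at 60.5, 73.0, 68.9 and 74.1 with bicuculline. The ranges nearly coincided, and library 1 was the lowest of its group in both. The log2 fold change was 0.0019 (95% CI -0.19 to 0.19, edgeR adjusted p 0.989), and its sign turned under several alternatives.

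Trpc1 was at 51.1, 40.5, 45.8 and 46.8 CPM at baseline and at 53.0, 50.9, 55.9 and 48.5 with bicuculline. It was higher with bicuculline in 4 of 4 pairs of equal number, but the groups overlapped and the log2 fold change of 0.18 (SE 0.079) did not pass (edgeR adjusted p 0.0831). With the replicate block, equal numbers being paired in this comparison, the p-value passed (0.18, edgeR adjusted p 0.0241) and the fold threshold did not. Trpc5 went from 18.2 ± 2.59 to 19.4 ± 1.37 CPM (0.09, 95% CI -0.18 to 0.36, adjusted p 0.602 in edgeR) and Trpc7 from 2.01 ± 0.328 to 2.30 ± 0.269 CPM (0.19, 95% CI -0.10 to 0.48, adjusted p 0.298 in edgeR). No member had groups that did not overlap, against 39.7% of all tested genes. Of the 5 log2 fold changes, those of Trpc1, Trpc4, Trpc5 and Trpc7 turned negative in limma on TPM.

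**Figure D2:**
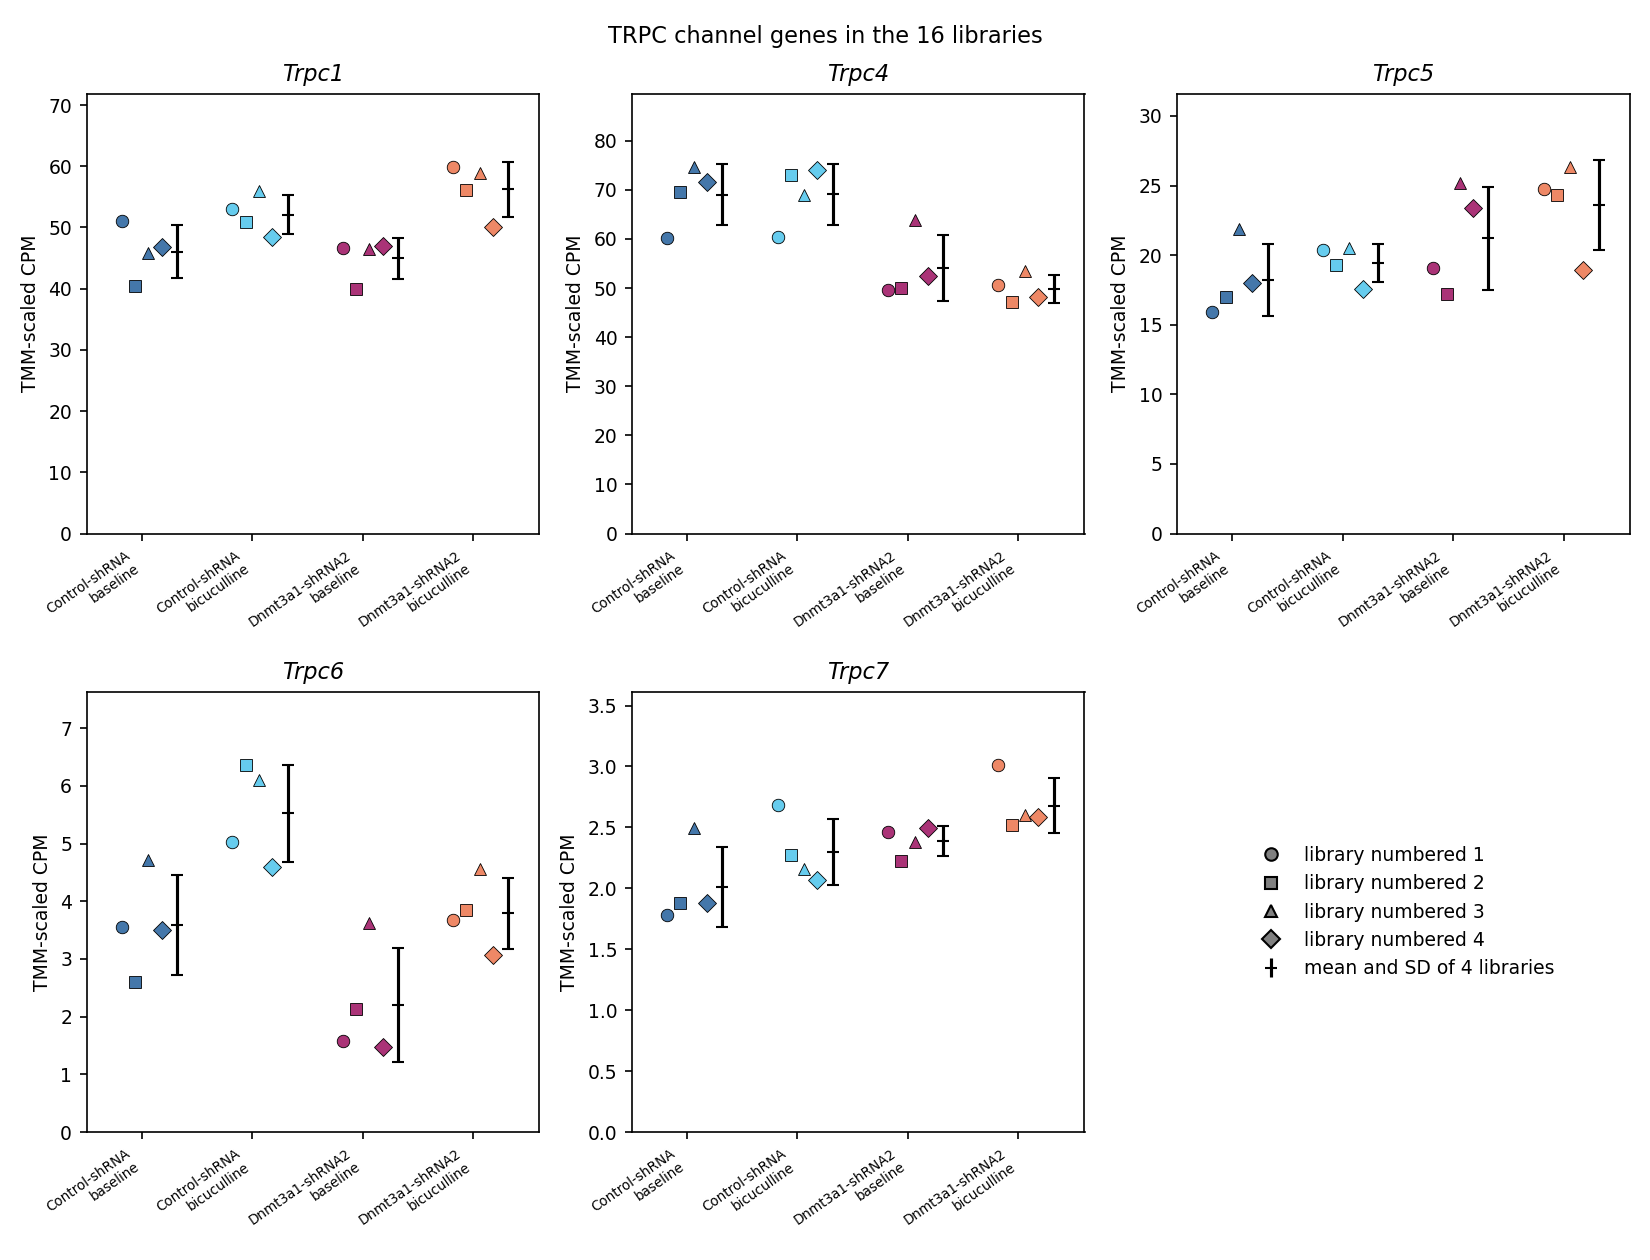
TMM-scaled CPM of each TRPC gene (vertical axes from 0) in the 16 libraries by group, with marker shapes for the replicate number and bars for the mean and SD of 4 libraries. Trpc6 lies between 1.48 and 3.62 CPM in Dnmt3a1-shRNA2 at baseline and between 4.60 and 6.36 CPM in Control-shRNA with bicuculline, and the library numbered 3 is the highest of its group in 3 of the 4 groups.

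The same question was asked in cultures with reduced Dnmt3a1. Trpc6 again rose upon bicuculline treatment and was the only member called, to 171% of its level at baseline, while Trpc1 passed the p-value but not the fold threshold. The count of 1 of 5 stands beside 25.8% of all tested genes.

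Trpc6 was at 1.58, 2.13, 3.62 and 1.48 CPM in the Dnmt3a1-shRNA2 baseline libraries and at 3.68, 3.85, 4.56 and 3.07 CPM with bicuculline. Baseline library 3 stood apart from the other baseline libraries and made the groups overlap, and the other 3 baseline libraries lay below all 4 bicuculline libraries. The means were 2.20 ± 0.987 and 3.79 ± 0.616 CPM, with a log2 fold change of 0.78 (SE 0.25, 95% CI 0.26 to 1.30, edgeR adjusted p 0.015). With all 4 libraries numbered 3 left out, an alternative chosen after the values were seen, it was 1.03 (edgeR adjusted p 0.000992). The call was lost without Dnmt3a1-shRNA2 baseline library 1 (adjusted p 0.0518 in edgeR) or 4 (0.0555) and without Dnmt3a1-shRNA2 bicuculline library 3 (0.0519), and also without TMM scaling (0.62, adjusted p 0.0634) and in limma on log2(TPM + 1) (0.39, adjusted p 0.107). Here too 8 of the 11 alternatives that left out no single library called Trpc6.

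Trpc1 was at 46.6, 39.9, 46.5 and 46.9 CPM in the Dnmt3a1-shRNA2 baseline libraries and at 59.9, 56.1, 58.8 and 50.0 with bicuculline. Every bicuculline library lay above every baseline library, as was so for 40.4% of all tested genes. The change was small, with a log2 fold change of 0.32 (SE 0.079, edgeR adjusted p 0.00278), which stayed below the fold threshold and was 0.11 in limma on log2(TPM + 1). Trpc7 likewise had groups that did not overlap, at 2.22 to 2.49 CPM against 2.52 to 3.01, but a log2 fold change of 0.16 (95% CI -0.12 to 0.45, edgeR adjusted p 0.352).

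Trpc4 was at 49.7, 50.0, 63.9 and 52.5 CPM in the Dnmt3a1-shRNA2 baseline libraries and at 50.7, 47.1, 53.4 and 48.1 with bicuculline. Baseline library 3 was the highest here too, and the remaining 7 libraries lay within 47.1 and 53.4. The log2 fold change was -0.12 (95% CI -0.31 to 0.07, edgeR adjusted p 0.315). Trpc5 changed by 0.15 (95% CI -0.11 to 0.42, adjusted p 0.356 in edgeR), with overlapping groups.

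The comparison between shRNAs asked which members depend on the level of Dnmt3a1. At baseline Trpc6 and Trpc4 lay lower in the knockdown and Trpc1 differed little, while none of the 5 were called, beside 5.83% of all tested genes. The baseline and bicuculline comparisons of the shRNAs share their libraries with the comparisons of bicuculline, so the values are set side by side and are not independent.

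Trpc6 in Dnmt3a1-shRNA2 baseline libraries stood at 61.6% of its Control-shRNA level, with a log2 fold change of -0.70 (SE 0.24, 95% CI -1.21 to -0.18). This missed the threshold (edgeR adjusted p 0.0603). It was lower in 4 of 4 pairs of equal number, by ratios of 0.445, 0.82, 0.768 and 0.423, and the groups overlapped because knockdown library 3 (3.62 CPM) lay above Control-shRNA libraries 1, 2 and 4. Equal numbers deviated together in this comparison, and a fit blocked on that number called the gene (-0.72, SE 0.17, edgeR adjusted p 0.00499). It was also called by voom with limma (-0.75, adjusted p 0.045), by DESeq2 (-0.70, adjusted p 0.0294) and in edgeR with no filter on low counts (-0.70, adjusted p 0.0363). Leaving out Dnmt3a1-shRNA2 baseline library 3 gave -1.05 (edgeR adjusted p 0.00275) and leaving out Control-shRNA baseline library 2 gave -0.83 (edgeR adjusted p 0.0363). The study listed Trpc6 among the genes it chose from these same libraries, so its direction here is not independent evidence. In separate cultures, the paper's qRT-PCR found Trpc6 regulated by activity. There the effect of the knockdown on Trpc6 was not significant with 1 of the 2 shRNAs.

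Trpc4 at baseline was at 78.3% of its Control-shRNA level, 54.0 ± 6.72 against 69.0 ± 6.21 CPM (SD, n = 4). The log2 fold change of -0.35 (SE 0.089, 95% CI -0.54 to -0.17) passed the p-value (edgeR adjusted p 0.011) but not the fold threshold. Knockdown libraries 1, 2 and 4, at 49.7 to 52.5 CPM, lay below all Control-shRNA libraries, and knockdown library 3 at 63.9 lay above Control-shRNA library 1 at 60.3. Over all alternatives that left out no single library, the log2 fold change ran from -0.47 to -0.35 with an adjusted p of at most 0.0344.

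Trpc5 was higher in the knockdown in 4 of 4 pairs of equal number (1.01 to 1.30 times), with 21.2 ± 3.69 against 18.2 ± 2.59 CPM, but did not pass (log2 fold change 0.22, 95% CI -0.05 to 0.49, edgeR adjusted p 0.27). Trpc7 was at 2.39 ± 0.120 against 2.01 ± 0.328 CPM (0.25, 95% CI -0.04 to 0.54, edgeR adjusted p 0.247). Trpc1 was at 45.0 ± 3.37 against 46.0 ± 4.35 CPM (-0.03, 95% CI -0.20 to 0.13, edgeR adjusted p 0.822). For all 5 members the groups overlapped, whereas 19.9% of all tested genes had groups that did not.

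With bicuculline the same members stood apart. Trpc4 and Trpc6 were lower in every Dnmt3a1-shRNA2 library than in every Control-shRNA library, as 20.9% of all tested genes were higher or lower without overlap, and none of the 5 members were called, beside 5.89% of all tested genes.

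Trpc4 with bicuculline was at 50.7, 47.1, 53.4 and 48.1 CPM in Dnmt3a1-shRNA2 and at 60.5, 73.0, 68.9 and 74.1 in Control-shRNA. The knockdown was at 72.1% of control, a log2 fold change of -0.47 (SE 0.09, 95% CI -0.66 to -0.28, edgeR adjusted p 0.00147) that stayed just inside the fold threshold. It crossed that threshold when Control-shRNA bicuculline library 1 (-0.53, edgeR adjusted p 0.000797) or Dnmt3a1-shRNA2 bicuculline library 3 (-0.51, edgeR adjusted p 0.00234) was left out, without TMM scaling (-0.54) and in limma on log2(TPM + 1) (-0.55). All 16 fits that left out 1 library kept the adjusted p under 0.05.

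Trpc6 with bicuculline was at 68.7% of its Control-shRNA level. The 4 knockdown libraries, at 3.07 to 4.56 CPM, lay just below the 4 Control-shRNA libraries at 4.60 to 6.36. The log2 fold change of -0.54 (SE 0.23, 95% CI -1.03 to -0.05) did not pass (edgeR adjusted p 0.119). It was called in 1 of the 16 fits that left out a library, that without Dnmt3a1-shRNA2 baseline library 3 (edgeR adjusted p 0.0465). Trpc5 was at 23.6 ± 3.24 against 19.4 ± 1.37 CPM (0.28, 95% CI 0.01 to 0.55, edgeR adjusted p 0.142), Trpc7 at 2.68 ± 0.223 against 2.30 ± 0.269 CPM (0.22, 95% CI -0.07 to 0.51, edgeR adjusted p 0.287) and Trpc1 at 56.2 ± 4.44 against 52.1 ± 3.16 CPM (0.11, 95% CI -0.06 to 0.28, edgeR adjusted p 0.371). In all 3 genes the groups overlapped.

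Markers of some cell types differed alongside Trpc4 and Trpc6 in the knockdown. The 6 markers of dentate granule cells, none at 0, summed to 42.9 to 53.1 TPM in Control-shRNA at baseline and 48.1 to 53.6 with bicuculline, against 29.8 to 47.4 and 39.8 to 47.5 in Dnmt3a1-shRNA2, with 0 of 6 called between the shRNAs in either condition. The 6 markers of excitatory neurons, none at 0, summed to 1620 to 1720 and 1240 to 1440 TPM in Control-shRNA and to 1400 to 1590 and 1070 to 1380 TPM in Dnmt3a1-shRNA2, again with 0 of 6 called. Of 7 microglial markers 3 passed the filter, their sum over all 7 never passed 8.32 TPM, and 1 was called lower in the knockdown in both conditions. The share of counts from mitochondrial genes was 2.80% to 4.75% in Control-shRNA and 2.73% to 5.99% in Dnmt3a1-shRNA2 at baseline, and 3.34% to 5.86% and 3.58% to 6.60% with bicuculline. It was lowest in the library numbered 3 of every group, which held the highest Trpc6 and Trpc4 levels of 3 groups each. The part of these markers and shares in the Trpc4 and Trpc6 values was not tested.

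**Figure D3:**
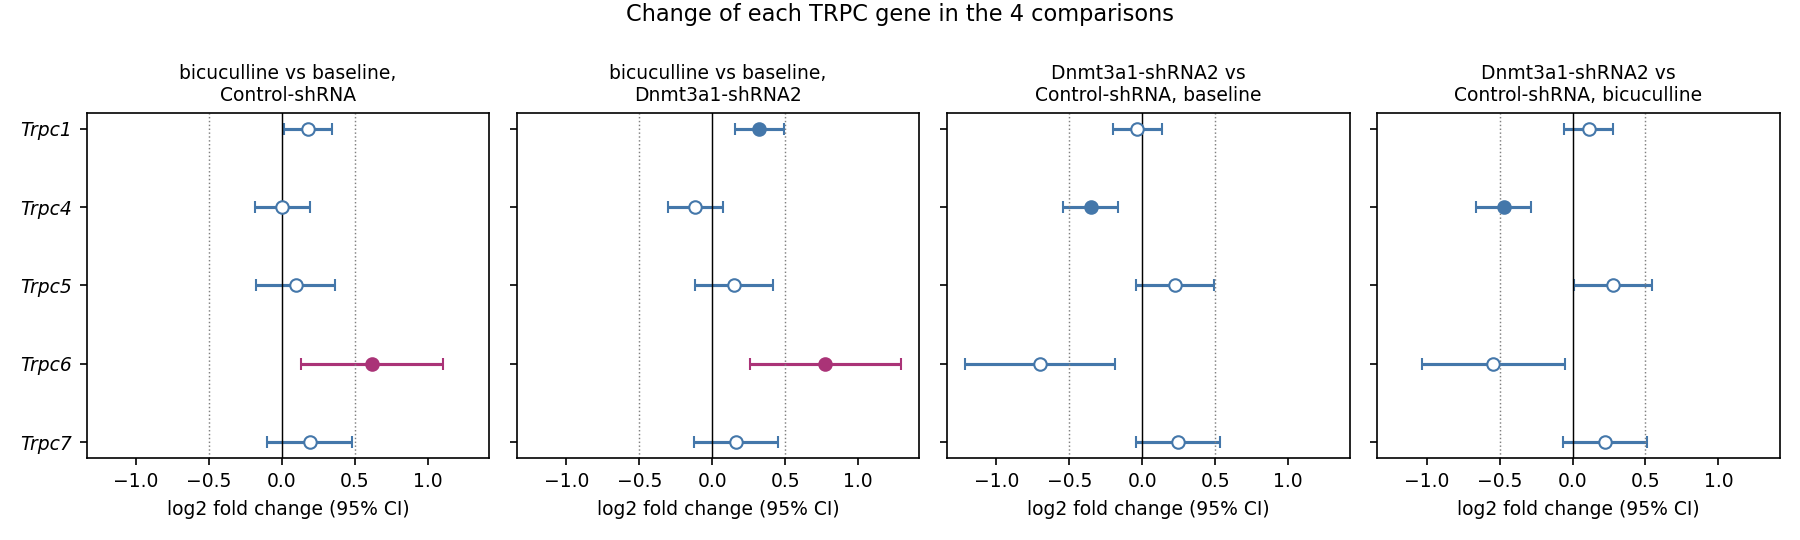
Log2 fold change of each TRPC gene with its 95% confidence interval in the 4 comparisons (edgeR, 16 libraries), with dotted lines at the fold threshold of 0.5, filled points for an adjusted p under 0.05 and purple for called genes. Trpc6 is called in both comparisons of bicuculline with baseline (0.62 and 0.78), and Trpc4 is filled on the lower side in both comparisons of the shRNAs (-0.35 and -0.47).

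Whether the response to bicuculline depended on the shRNA was tested by the interaction. For Trpc6 the difference of the log2 responses was 0.16 (SE 0.34, 95% CI -0.55 to 0.87), for Trpc4 -0.12 (SE 0.13, 95% CI -0.38 to 0.15) and for Trpc1 0.14 (SE 0.11, 95% CI -0.09 to 0.38). For Trpc5 it was 0.06 (95% CI -0.32 to 0.44) and for Trpc7 -0.03 (95% CI -0.43 to 0.38). No member passed, with adjusted p of 1 in edgeR for each, and none had an unadjusted p under 0.05, but the intervals, above all that of Trpc6, leave room for sizeable differences. Among all tested genes 0% were called by edgeR, and 17 genes were called by DESeq2. An unadjusted p under 0.05 in edgeR was found for 852 genes, or 4.95%, about the share that this threshold gives with no interaction.

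Ordered by mean CPM, Trpc6 was highest in Control-shRNA with bicuculline (5.52), followed by Dnmt3a1-shRNA2 with bicuculline (3.79), Control-shRNA at baseline (3.59) and Dnmt3a1-shRNA2 at baseline (2.20). The first of these groups did not overlap with the next, while each of the remaining neighbours did overlap. Trpc4 followed another order, with both Control-shRNA groups at 69.1 and 69.0, then Dnmt3a1-shRNA2 at baseline (54.0) and with bicuculline (49.8), and all neighbours overlapped. Trpc5 and Trpc7 shared an order, highest in Dnmt3a1-shRNA2 with bicuculline (23.6 and 2.68) and lowest in Control-shRNA at baseline (18.2 and 2.01), with an overlap of neighbours except between the highest groups of Trpc7. The spread between libraries of a group was widest in Trpc6, with a coefficient of variation of 15.3% to 44.8%, against 5.66% to 12.4% in Trpc4, 6.06% to 9.45% in Trpc1, 7.07% to 17.4% in Trpc5 and 5.01% to 16.3% in Trpc7.

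**Figure D4:**
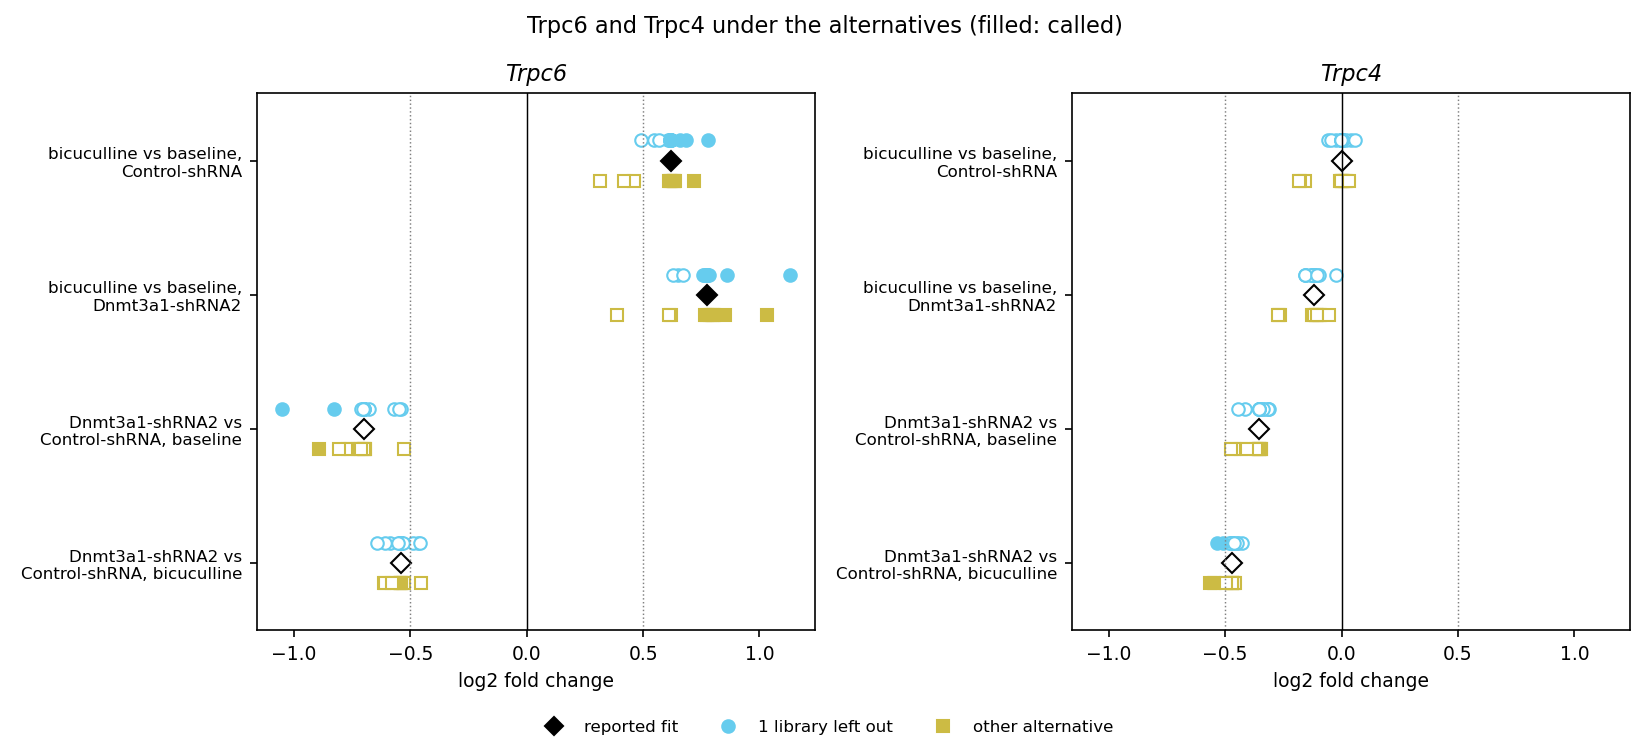
Log2 fold change of Trpc6 (left) and Trpc4 (right) in the 4 comparisons for the reported fit (diamonds), with 1 library left out (circles) and under the other alternatives (squares), filled where the gene was called. Trpc6 stays above 0 for bicuculline (0.32 to 1.13) and below 0 for the knockdown (-1.05 to -0.46), with calls gained and lost, while Trpc4 lies around 0 for bicuculline in Control-shRNA (-0.18 to 0.06).

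Likeness to other genes was described by Pearson's r of log2 CPM over the 16 libraries, which fall into 4 groups that many genes separate, so that r is given as a description. Most like Trpc6 were St8sia5, a sialyltransferase (r = 0.953), Ildr2 (0.942) and Cth, an enzyme that makes cysteine (0.931). Within groups, after subtracting each group's mean, these were 0.853, 0.823 and 0.785. Most like Trpc4 were Hhipl1 (0.952), the delta opioid receptor Oprd1 (0.941) and Nceh1 (0.930), and within groups 0.820, 0.756 and 0.669. For Trpc1 they were Lpp, Mon2 and Tmem263 (0.930, 0.925 and 0.918), for Trpc5 Prkaa2 and Erbin (0.838 and 0.834) and for Trpc7 Speer5-ps1, Cgnl1 and Pcdh9 (0.895, 0.890 and 0.860). Among the members themselves the highest r was 0.750, between Trpc5 and Trpc7, and within groups the highest was 0.579, between Trpc4 and Trpc6.

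Trpc2, which works in the vomeronasal organ, did not pass the filter, and its group means reached at most 0.133 TPM. Among 21 other TRP channels, 14 were tested. With bicuculline Trpm7 (-0.78 and -0.72 in the 2 shRNAs) and Pkd2l2 (-0.59 and -0.62) were called lower and no channel was called higher. In the knockdown Trpv6 (-0.71), Trpv2 (-0.68) and Trpm2 (-0.51) were called lower at baseline and Trpv2 (-0.84) with bicuculline. The median log2 fold change of the 14 was -0.02 and -0.08 with bicuculline and 0.0084 and 0.0049 in the knockdown, beside medians of all genes within 0.01 of 0.

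Upstream of the channels, 22 of 23 Gq-coupled receptors were tested. With bicuculline 6 were called higher and 5 lower in Control-shRNA and 8 higher and 5 lower in Dnmt3a1-shRNA2, with medians of 0.27 and 0.28. That is 50% and 59.1% of the 22, beside 21.9% and 25.8% of all tested genes. For this and the following lists the shares of all tested genes called in the knockdown were 5.83% at baseline and 5.89% with bicuculline. The largest changes of called receptors were those of the neurokinin receptor Tacr3 (1.67 and 1.66). Next came Htr2b (1.51) and Chrm5 (-1.33) in Control-shRNA and Htr2a (1.12) and Adra1a (1.10) in Dnmt3a1-shRNA2. Chrm5 (-1.02) was also called in Dnmt3a1-shRNA2, and Htr2a (1.04) and Adra1a (0.94) in Control-shRNA. Htr2b was low, at 0.176 CPM at baseline and 0.507 with bicuculline in Control-shRNA, and was not called in Dnmt3a1-shRNA2 (1.17). In the knockdown at baseline 1 was called higher, Tacr1 (0.62), and 2 lower, among them the muscarinic receptor Chrm3 (-0.50), and with bicuculline 0 were called higher and 1 lower, with medians of -0.04 and 0.04. Of 14 tested Gq proteins and phospholipases C, Plch1 was called lower with bicuculline (-0.67 and -0.70). Plce1 was called higher in Dnmt3a1-shRNA2 (0.75) and passed the p-value but not the fold threshold in Control-shRNA (0.49). Between the shRNAs 0 of 14 were called. Their medians were -0.07 and 0.02 with bicuculline and 0.11 and 0.11 in the knockdown.

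Diacylglycerol, the lipid that opens TRPC6 and TRPC7, is removed by kinases and lipases, and 12 of 12 were tested. With bicuculline Dgkk (1.06 and 1.36) and Daglb (0.81 and 0.76) were called higher, and 2 were called lower in each shRNA, Dgke (-0.61 and -0.76) with the largest change. In the knockdown Dgkg (-1.32 in both conditions) and Dgka (-0.98 and -0.72) were called lower and none higher, with medians of the 12 between -0.06 and -0.02 in all comparisons. Of 8 genes of store-operated entry and IP3 receptors, Itpr3 (-1.25) and Orai3 (-0.81) were called lower with bicuculline in Control-shRNA. In Dnmt3a1-shRNA2 Itpr3 (-0.58), Stim2 (-0.53) and Orai2 (-0.53) were called lower, and the medians of the 8 were -0.38 and -0.33. Stim2 (-0.44) and Orai2 (-0.37) passed the p-value but not the fold threshold in Control-shRNA. Itpr3 was low, at 0.743 CPM at baseline and 0.308 with bicuculline in Control-shRNA. In the knockdown at baseline Orai3 was called lower (-0.91) and Orai1 higher (0.63), with none called with bicuculline.

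Among 13 binding partners only Homer1, a scaffold that links TRPC channels to glutamate receptors, was called. It rose by 3.34 and 3.67 on the log2 scale with bicuculline and was 0.63 higher in the knockdown with bicuculline (edgeR adjusted p 0.0368). These Homer1 values are for the whole gene and do not tell its transcripts apart. The medians of the 13 were 0.15 and 0.16 with bicuculline and 0.24 and 0.20 in the knockdown. Downstream, 3 of 11 calcineurin and NFAT genes were called higher with bicuculline in each shRNA, Nfatc1 (1.93 and 1.40), Nfatc2 (0.75 and 0.96) and Rcan2 (0.68 and 0.69), and Rcan1 was called higher in the knockdown at baseline (0.52). Bdnf and its receptor Ntrk2, a receptor that signals to TRPC channels, were both called higher with bicuculline (2.53 and 0.89 in Control-shRNA, 2.91 and 0.89 in Dnmt3a1-shRNA2), and Bdnf was called lower in the knockdown at baseline (-0.74). List values are from the TMM-scaled fit and were not recomputed under other scalings. Over all 9 lists 27.8% and 30.9% of 97 tested genes were called with bicuculline, beside 21.9% and 25.8% of all tested genes, and 12.4% and 5.15% in the knockdown at baseline and with bicuculline, beside 5.83% and 5.89%.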

How the data were processed

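RNA from 16 libraries of primary mouse hippocampal cultures was sequenced on the BGISeq-500 platform. Per the labels and the methods of the study, the authors trimmed reads with Trim Galore 0.6.4, quantified them with kallisto on GRCm38.p6, and deposited 2 values per gene and library, the estimated count and TPM. The kallisto version is left out because the sources differ. TPM is scaled for transcript length and library total, and the estimated counts are not. Groups and replicate numbers came from the sample labels. Of 55385 gene identifiers, 55144 matched GENCODE M21 without the version.

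Rounded estimated counts entered edgeR 4.0.16 under R 4.3.3 (TMM scaling, filter on low counts by group, 1 quasi-likelihood fit to the 4 groups). Adjustment was by Benjamini-Hochberg over all 17222 tested genes. On data simulated for bicuculline against baseline in Control-shRNA, 157 of 200 genes changed by a log2 of 1 were recovered among 16947 genes, with 6 false calls. Alternatives used limma 3.58.1 (the study's tool, voom, and TPM with pseudocounts of 1 and 0.1) and DESeq2 1.42.0, other scaling and filters, the replicate number as a block and each library left out. Same-numbered libraries correlated in their deviations from the group means at 0.142 to 0.221 (bicuculline in Control-shRNA) and 0.204 to 0.355 (shRNAs at baseline), so numbers were taken as pairs there. In the other 2 comparisons 1 number was below 0.1. Each pair of libraries was also compared against sampling noise.

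The members, gene lists and marker lists were chosen with earlier results of these data known. All 5 members are named in every comparison, with called genes of each list (at most 3 per comparison, by absolute log2 fold change), up to 3 genes most like each member, Dnmt3a and 3 immediate early genes. Patj was named after its values were seen. Promoters are from RefSeq, and all 5 members matched. Protein sequences were not used here. Some genes that this rule would name are not reported here.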

Additional observations from a re-analysis of the deposited data

Results flagged for a closer look

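Among 20 sets of 4 libraries, 1 for each gene and group, 2 held a library set apart from the other 3 by more than Dixon's 95% critical value. About 1 in 20 such sets is marked by chance. Trpc1 in Dnmt3a1-shRNA2 baseline library 2 was at 39.9 CPM, below the 46.5 to 46.9 CPM of the other 3 (gap 0.936 of the range). Trpc7 in Control-shRNA baseline library 3 was at 2.50 CPM, above the 1.78 to 1.88 CPM of the other 3 (gap 0.853 of the range).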

How the results depend on the processing

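Of 665 log2 fold changes of the 5 members under the alternatives, 595 kept their sign and their side of the call. With library sizes only, and in limma on log2(TPM + 1) and log2(TPM + 0.1), 0 members were called with bicuculline in either shRNA, and 1 (Trpc4) was called in the knockdown with bicuculline, where the block (Trpc6, -0.55, adjusted p 0.0156), no fold threshold (Trpc4) and a fit to only the groups compared (Trpc6) also gave 1. No fold threshold gave 2 for bicuculline in Dnmt3a1-shRNA2, 1 in the knockdown at baseline and 7131, 7919, 2809 and 3046 genes in all against 3765, 4436, 1004 and 1015. In the knockdown at baseline 1 (Trpc6) was called by voom, by DESeq2, with no filter, with the replicate block and with all libraries numbered 3 left out (-0.89, adjusted p 0.0117). Leaving out each library gave 0 to 1 members in each of the 4 comparisons and 0 in the interaction. The block changed no other member's call. In the interaction DESeq2 called 17 genes, and the block and no filter 3 each. Without TMM scaling the share of higher among called genes was 31% instead of 49.2% with bicuculline in Control-shRNA, 32.8% instead of 48.9% in Dnmt3a1-shRNA2, 14.2% instead of 30.2% in the knockdown at baseline and 19.2% instead of 33.9% with bicuculline, and on log2(TPM + 1) 28.6%, 30.6%, 9.11% and 14.5%. None of the sign changes below involved a called value.

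With bicuculline in Control-shRNA, signs turned with library sizes only (Trpc4 -0.16, Trpc5 -0.069), on log2(TPM + 1) (Trpc1 -0.048, Trpc4 -0.18, Trpc5 -0.10, Trpc7 -0.0034), on log2(TPM + 0.1) (-0.049, -0.18, -0.11 and -0.00070), with no filter (Trpc4 -0.0048), in the 2 groups alone (Trpc4 -0.00041) and with single libraries left out (Trpc4 -0.058 to 0.057). In Dnmt3a1-shRNA2 they turned on log2(TPM + 1) (Trpc5 -0.035, Trpc7 -0.00075) and log2(TPM + 0.1) (-0.037 and -0.00065). In the knockdown, Trpc1 turned on TPM with bicuculline (-0.0065 and -0.0067) and at baseline with single libraries left out (-0.091 to 0.020). In the interaction Trpc7 turned on TPM (0.0026 and 5.3e-05), and single libraries left out gave -0.15 to 0.055 for Trpc7, -0.042 to 0.15 for Trpc5 and -0.0040 to 0.51 for Trpc6. The causes were not tested. For bicuculline in Dnmt3a1-shRNA2 and for the shRNAs with bicuculline, the lowest correlation of equal numbers was 0.0631 and 0.0667. As these lay below 0.1, equal numbers were not taken as pairs there. Libraries correlated best with their own number in 3 of 4 and 2 of 4 numbers in these comparisons. It was also 3 of 4 for bicuculline in Control-shRNA, so this count did not set the pairing. The counts of Trpc6 and Trpc7 limit what these libraries can show.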
